A study of Mus musculus with 12 samples.

Results

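The genes described here encode the vesicle exocytosis machinery of the neonatal mouse hair cell. They were chosen by gene name, as all protein-coding genes of the syntaxin (Stx), synaptotagmin (Syt), VAMP, complexin (Cplx) and syntaxin-binding protein (Stxbp) series together with Snap23, Snap25, Snap29, Snap47, Unc13a to Unc13d, Sv2a to Sv2c, Syn1 to Syn3 and Rab3a to Rab3d. This gave 68 of the 55416 genes in the count files, without Vamp7, which was not analysed. Their RNA was measured by bulk RNA-seq in 6 libraries of inner hair cells (IHCs) and 6 libraries of outer hair cells (OHCs), and the comparison asks which of these genes differ in level between the cell types at birth. All libraries came from the organ of Corti at postnatal day 0 (P0), and the labels give both groups as WT. IHCs were sorted by the Atoh1-GFP signal, and OHCs by Atoh1-GFP together with Insm1-GFP-Cre and R26-TdTomato, so that the OHC gate rests on Cre made from the Insm1 locus, which switches on tdTomato. The study's methods describe the libraries as biological replicates, each a pool of hair cells of several newborn mice of both sexes, so the p-values below measure the spread between such pools and not between single animals. In pooled cells, fewer cells that express a gene and less RNA per cell cannot be told apart.

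Exocytosis joins a vesicle to the plasma membrane through SNARE proteins, with a VAMP on the vesicle and a syntaxin and SNAP-25 or a relative on the target membrane. Munc18 proteins (the Stxbp genes) and Munc13 proteins (the Unc13 genes) bring the SNAREs together, complexins hold the assembled complex, and synaptotagmins, which carry C2 domains, include the calcium sensors that set off fusion in neurons. Hair cells release glutamate at ribbon synapses, where the C2 domain protein otoferlin acts in calcium-triggered release. Synapsins, SV2 proteins and Rab3 GTPases are proteins of the synaptic vesicle surface or membrane.

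Counts on genes ran from 31490204 to 44017309 in IHC libraries and from 29564827 to 39121988 in OHC libraries. Ribosomal and mitochondrial transcripts took 24.3% to 60% and 25.3% to 39.0% of these, with the highest share in IHC replicate 1. The 10 hair cell marker genes were all detected well enough to be tested and summed to 5112 to 7149 CPM in IHC libraries and 5136 to 6770 CPM in OHC libraries, with Gfi1 and Espn higher in IHCs, the 4 IHC markers Slc17a8, Fgf8, Tbx2 and Otof were higher in every IHC library than in any OHC library, and so were Insm1, Neurod6, Bcl11b and Bmp2 in the OHC libraries, while the OHC marker Ikzf2 overlapped. IHC replicate 6 stood apart from the other IHC libraries for the supporting cell markers Fgfr3, at 73.3 CPM, and Prox1, at 79.7 CPM. The 8 endothelium markers summed to 0.302 to 5.08 CPM in IHC libraries and 16.1 to 220 CPM in OHC libraries, highest in OHC replicate 3.

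Of the 68 genes, 53 had counts high enough to be tested, and 4 of them differed between the cell types. Snap25, Syt2 and Syt17 were enriched in IHCs and Syt1 was enriched in OHCs. These 4 are 7.55% of the tested members, beside 6.26% of all 13269 genes tested, with 3.81% of all genes enriched in IHCs and 2.44% in OHCs. The test was edgeR's quasi-likelihood test on the deposited counts, with p-values adjusted over all genes by the Benjamini-Hochberg method, and a gene is called enriched here when the adjusted p is under 0.05. A log2 fold change is that of OHCs against IHCs, so it is negative for a gene higher in IHCs. The level of a gene in a library is given as CPM, the usual depth-scaled read count, on library sizes after TMM normalization. Levels of different genes are compared only as CPM per kb of exon. The length used is that of all annotated exons of a gene merged, which can exceed the mRNA these cells make. Orders and shares of different genes depend on this length.

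The fitted differences of the members were about the size of those of all genes tested. In 38 of the 53 tested members the log2 fold change was within 1 of 0, with 30 values below 0 and 23 above. The same shares over all genes are not given here. The median was -0.17 for the members and -0.04 for all genes tested, and the median size of the change was 0.63 and 0.59. At an unadjusted p under 0.05 there were 14 members, which is 26.4% of those tested, beside 21.8% of all genes. The 10 families split into 2 with a called gene, the SNAP-25 family and the synaptotagmins, and 8 without one. Those 8 families hold 39 tested members, of which edgeR's quasi-likelihood test called 0 by the way the families were split. Among them an unadjusted p under 0.05 was reached by 4 genes lower and 3 genes higher in OHCs. DESeq2 called 2 and 3 of them, and edgeR's exact test called 1 in each direction. As these families were picked for lacking a call, such counts are not a test of them. Over all members DESeq2 called 12 of 55 tested and the exact test 7 of 53, beside 17.3% and 9.54% of all genes tested by each.

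**Figure D1:**
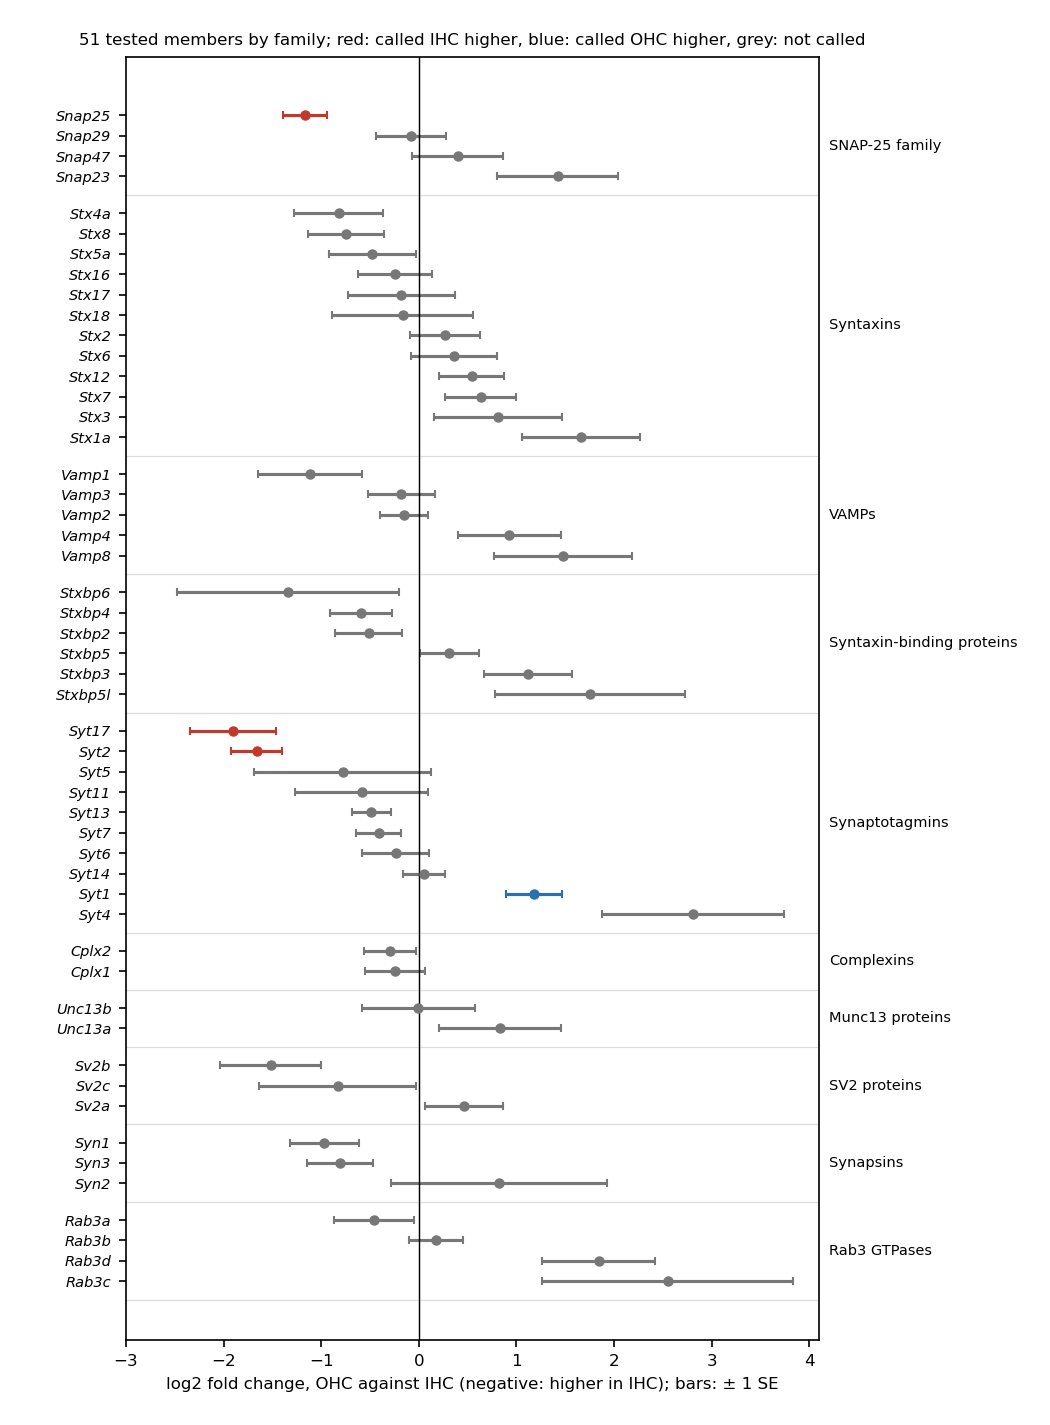
Log2 fold change of OHCs against IHCs (x axis) for 51 of the 53 tested members, one row per gene and grouped by family, with bars of 1 standard error on each side. Red points are Snap25, Syt17 and Syt2, called higher in IHCs, the blue point is Syt1, called higher in OHCs, and the grey points were not called.

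Snap25 encodes the plasma membrane SNARE of neuronal exocytosis and lies on chromosome 2 of GRCm39 from 136533580 to 136624362, on the plus strand. Its lowest, median and highest levels were 117, 148 and 225 CPM in IHC libraries and 59.5, 70.2 and 91.4 CPM in OHC libraries. Every IHC library lay above every OHC library, an arrangement seen in 2 members and in 2.37% of all genes tested. The mean was 161 ± 44.0 CPM (SD, n = 6) in IHCs and 71.9 ± 11.5 CPM among OHCs. The log2 fold change was -1.17 (standard error, SE, 0.23, edgeR adjusted p = 0.00311), a level 2.25-fold higher in IHCs.

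None of the 3 relatives of Snap25 was called. Snap23, the SNAP-25 homologue of most non-neuronal cells, had 1.73 to 33.2 CPM in IHC libraries and 11.7 to 77.2 CPM in OHC libraries, and its log2 fold change of 1.42 (SE 0.62) did not pass the test (edgeR adjusted p = 0.181). The counts of this gene are less certain, because exons of Lrrc57 on the other strand cover 30% of its exonic length and the strand setting of the counting is not named. Snap29 and Snap47, which serve intracellular membranes, had log2 fold changes of -0.08 and 0.40. Per kb of exon, Snap25 made up 54.8% ± 15.5 (SD, n = 6) of the 4 family members in IHCs and 30.4% ± 6.69 in OHCs, where Snap29 had the largest mean share, at 36.4% ± 5.03.

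**Figure D2:**
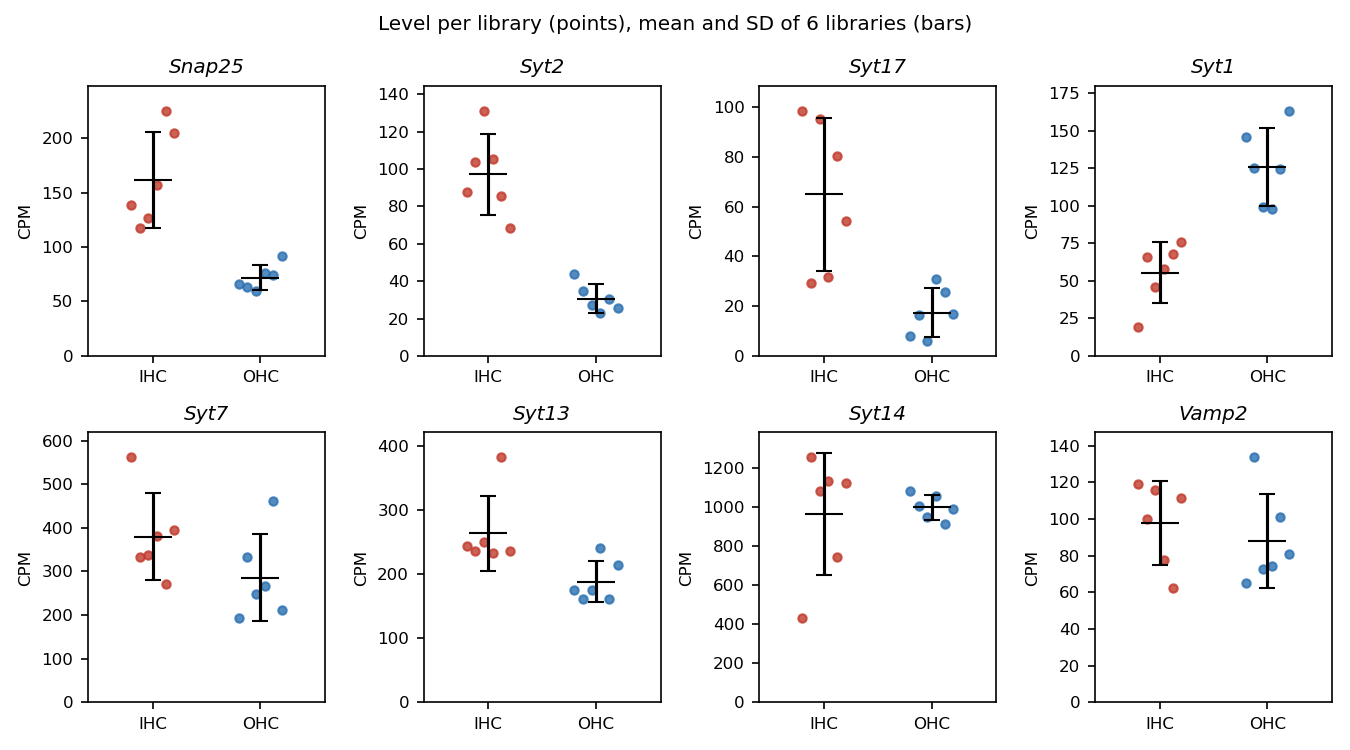
Level in CPM (y axis, from 0) of 8 members in each of 6 IHC libraries (red) and 6 OHC libraries (blue), with the mean and SD as black bars. The 2 groups of points are separate for Snap25, Syt2 and Syt1, share a narrow range for Syt17, and overlap for Syt7, Syt13, Syt14 and Vamp2.

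Among the syntaxins, 13 of 15 members were tested. Stx1a, a neuronal plasma membrane syntaxin, had a lowest, median and highest level of 1.69, 3.50 and 7.44 CPM among IHCs and 7.70, 12.1 and 15.4 CPM among OHCs. Every OHC library was above every IHC library, as for Syt1 among the members and for 2.22% of all genes. The log2 fold change of 1.66 (SE 0.60) nevertheless did not pass edgeR's quasi-likelihood test (adjusted p = 0.109), while DESeq2 gave an adjusted p of 3.46e-04.

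Several syntaxins of other membranes were more abundant than Stx1a. Per kb of exon, Stx4a, which acts at the plasma membrane of many non-neuronal cells, had the highest mean of the syntaxins in IHCs, at 16.8 ± 11.3 CPM per kb (SD, n = 6). In OHCs this was Stx12, a syntaxin of recycling endosomes, at 12.7 ± 3.66 CPM per kb. Stx1a reached 1.196 ± 0.674 and 3.79 ± 0.85 CPM per kb in IHCs and OHCs. Stx4a and Stx12 had log2 fold changes of -0.82 and 0.54 (edgeR adjusted p = 0.309 and 0.360). Of the exonic bases of Stx4a, 16.4% lie opposite the lncRNA Gm72953. Stx2, Stx3, Stx17, Stx18 and the Golgi and endosomal forms Stx5a, Stx6, Stx7, Stx8 and Stx16 had log2 fold changes between -0.75 and 0.81. Stx17, the syntaxin of autophagosomes, ranged from 6.18 to 112 CPM within IHCs alone.

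The vesicle SNARE with the highest level in both cell types was Vamp2, or synaptobrevin 2, with 62.4, 106 and 119 CPM in IHC libraries and 65.0, 77.7 and 134 CPM in OHC libraries (lowest, median and highest). These ranges overlap almost in full, and the log2 fold change was -0.15 (SE 0.25, edgeR adjusted p = 0.763). Per kb of exon, Vamp2 made up 66.2% ± 5.25 (SD, n = 6) of the 7 VAMP genes analysed in IHCs and 56.6% ± 8.03 in OHCs, with Vamp7 left out. Vamp1, or synaptobrevin 1, had 9.03, 17.4 and 65.7 CPM among IHCs and 5.89, 12.95 and 25.1 CPM among OHCs, with 2 IHC libraries above every OHC library and a log2 fold change of -1.12 (SE 0.53, edgeR adjusted p = 0.226). Vamp4, a SNARE of the trans-Golgi network and endosomes, had 2.24, 11.0 and 18.3 CPM among IHCs and 13.6, 18.9 and 28.0 CPM among OHCs, where 4 libraries lay above every IHC library (log2 fold change 0.93, SE 0.53, edgeR adjusted p = 0.317). Vamp8, an endosomal form, was not called, at 0.613 to 23.8 CPM among IHCs and 10.1 to 34.5 CPM among OHCs (edgeR adjusted p = 0.230), and Vamp3 had a log2 fold change of -0.18.

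All 7 syntaxin-binding genes were tested. None was called. Stxbp2, or Munc18-2, used in exocytosis of epithelial and blood cells, had the highest mean of them per kb in IHCs, at 12.3 ± 6.81 CPM per kb (SD, n = 6), and had 8.61 ± 2.53 CPM per kb in OHCs. Its lowest, median and highest levels were 28.4, 51.5 and 121 CPM in IHC libraries and 29.2, 41.5 and 63.1 CPM in OHC libraries, which overlap (log2 fold change -0.51, SE 0.34, edgeR adjusted p = 0.403).

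The tomosyns, which bind syntaxin and SNAP-25 and hold back fusion, were at very different levels. Stxbp5 had 52.1, 72.7 and 130 CPM among IHCs and 50.4, 90.5 and 150 CPM among OHCs, with a log2 fold change of 0.31 (SE 0.30, edgeR adjusted p = 0.582). Stxbp5l had 0.0785, 0.948 and 5.12 CPM among IHCs and 0.96, 5.10 and 9.07 CPM among OHCs, and 3 OHC libraries lay above every IHC library (log2 fold change 1.75, SE 0.97, edgeR adjusted p = 0.307). Stxbp3, Stxbp4 and Stxbp6 had log2 fold changes of 1.12, -0.59 and -1.34, none of which passed the test, although DESeq2 called Stxbp3 higher in OHCs.

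The synaptotagmins held 3 of the 4 called genes. Syt1 and Syt2, the calcium sensors of fast release in neurons, differed in opposite directions. Syt2 lies on chromosome 1 from 134574290 to 134690331 on the plus strand, and its lowest, median and highest levels were 68.7, 95.7 and 131 CPM among IHCs and 22.9, 28.6 and 43.7 CPM among OHCs. Syt1 lies on the minus strand of chromosome 10, from 108333505 to 108846856, and had 19.2, 61.8 and 75.8 CPM among IHCs and 97.7, 125 and 163 CPM among OHCs. Neither gene overlapped between the groups. The log2 fold change of Syt2 was -1.66 (SE 0.26, edgeR adjusted p = 5.06e-04), 3.16-fold higher in IHCs. That of Syt1 was 1.18 (SE 0.29, edgeR adjusted p = 0.0167), 2.27-fold higher in OHCs.

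Per kb of exon the 2 genes changed places. IHCs had 4.29 ± 1.58 CPM per kb of Syt1 and 10.4 ± 2.29 CPM per kb of Syt2 (SD, n = 6). OHCs had 9.75 ± 1.998 and 3.28 ± 0.81 CPM per kb. Syt1 was 13.7% to 44.5% of the pair's summed level in IHC libraries and 70.8% to 82.3% in OHC libraries. The sum itself was 14.7 ± 2.39 CPM per kb in IHCs and 13.03 ± 2.43 in OHCs, a difference smaller than either SD. The sum and the ratio were looked at after the values were seen and were not tested. IHC replicate 1, which had the most ribosomal and mitochondrial RNA, had the lowest Syt1 level of all. Without it the log2 fold change of Syt1 was 0.997 (edgeR adjusted p = 0.00902). Over the 12 fits without one library each, the edgeR adjusted p of Syt1 ran from 0.00902 to 0.0498, close to the threshold.

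**Figure D3:**
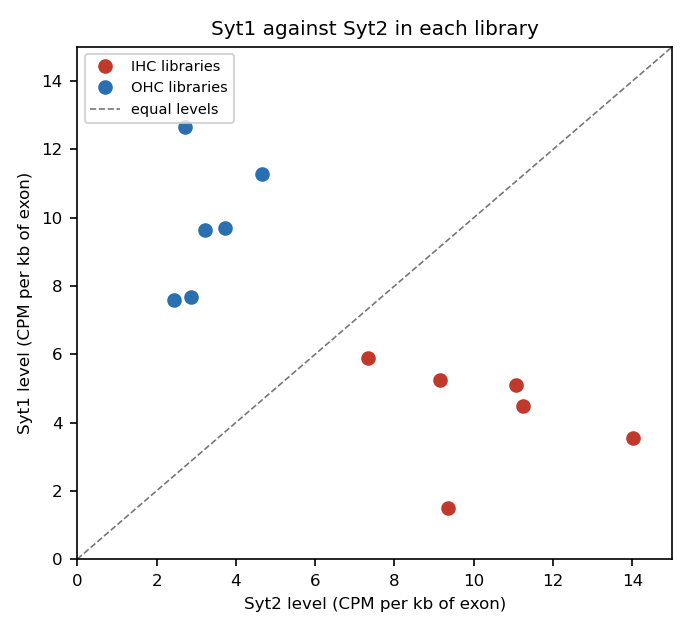
Syt1 level (y axis) against Syt2 level (x axis), both in CPM per kb of exon, with one point per library and a dashed line at equal levels. All 6 IHC libraries (red) lie below the line and all 6 OHC libraries (blue) above it.

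Syt17, a divergent synaptotagmin also known as B/K protein, lies on the minus strand of chromosome 7 from 117979934 to 118055470. It had 29.4, 67.3 and 98.6 CPM in IHC libraries and 5.83, 16.6 and 31.0 CPM in OHC libraries. The lowest IHC library fell just below the highest OHC library, and the other 5 IHC libraries lay above them all. The log2 fold change was -1.91 (SE 0.44, edgeR adjusted p = 0.0124), 3.75-fold higher in IHCs. IHC levels of Syt17 were spread more widely than those of Syt2, with an SD of 30.8 CPM around a mean of 64.9 CPM, against 21.5 around 97.1 CPM.

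Syt4, whose product does not act as a fast calcium sensor, had the largest fitted log2 fold change of the tested members, 2.81 (SE 0.93), but did not pass edgeR's quasi-likelihood test (adjusted p = 0.0791). Its levels were 0.262, 0.989 and 4.19 CPM among IHCs and 0.651, 8.35 and 23.1 CPM among OHCs. OHC libraries differed widely among themselves, with 4 of 6 above every IHC library. DESeq2 and edgeR's exact test both called Syt4 higher in OHCs (adjusted p = 0.00635 and 0.0269). The lncRNA Gm26658 lies opposite 19.1% of its exonic bases, with at most 3 counts in a library.

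Most synaptotagmin RNA came from 3 other genes. Per kb of exon, Syt14, Syt7 and Syt13 together made up 78.2% ± 3.18 (SD, n = 6) of the family in IHCs and 80.4% ± 4.42 in OHCs. Syt14, a form without the calcium-binding residues of Syt1, was the most abundant member of all in both cell types, at 54.3 ± 17.6 and 56.4 ± 3.58 CPM per kb, with 97.4% and 98.0% of all tested genes below it. Its log2 fold change was 0.05 (SE 0.21, edgeR adjusted p = 0.913) and fell to -0.11 without IHC replicate 1, whose 432 CPM was the lowest of the 12 libraries.

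Syt7, a slow and highly calcium-sensitive form, had 272, 359 and 562 CPM among IHCs and 193, 257 and 462 CPM among OHCs. The groups overlapped, and the log2 fold change was -0.41 (SE 0.23, edgeR adjusted p = 0.316). Syt13, another form without calcium-binding residues, had 233 to 382 CPM among IHCs and 161 to 240 CPM among OHCs, with 3 IHC libraries above every OHC library and a log2 fold change of -0.49 (SE 0.20, edgeR adjusted p = 0.150), and DESeq2 called it higher in IHCs. Syt5, Syt6 and Syt11 had log2 fold changes of -0.78, -0.24 and -0.59, and none passed the test. Summed over all 17 members, synaptotagmin RNA was 165 ± 7.69 CPM per kb in IHCs and 139 ± 8.10 in OHCs, from 151 to 172 in IHC libraries and from 124 to 148 in OHC libraries. Like the other summed levels given here, this sum was not tested.

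**Figure D4:**
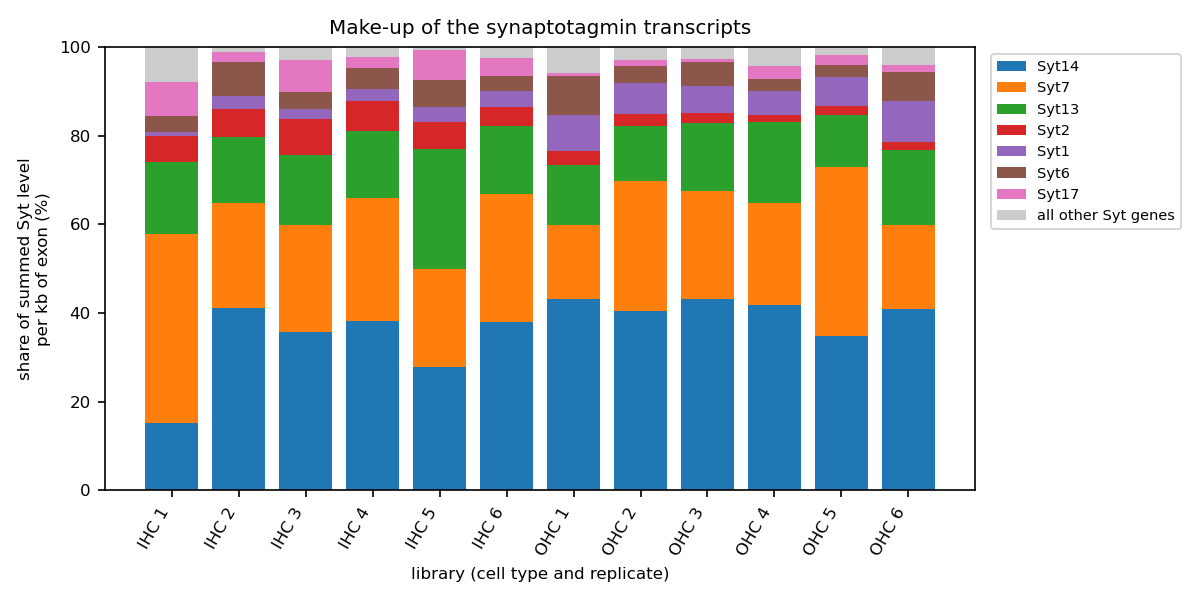
Share of the summed synaptotagmin level per kb of exon (y axis, percent) taken by 7 Syt genes and by all others, in stacked bars, one for each of 12 libraries. Syt14, Syt7 and Syt13 fill 73.3% to 84.6% of every bar, the purple band of Syt1 is wider in OHC libraries and the red band of Syt2 is wider in IHC libraries.

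Complexins bind the assembled SNARE complex, and of 4 members 2 were tested. Cplx1 had 34.6, 59.3 and 111 CPM in IHC libraries and 42.1, 50.2 and 78.5 CPM in OHC libraries, with a log2 fold change of -0.24 (SE 0.31, edgeR adjusted p = 0.691). Cplx2 had 53.2, 66.6 and 86.7 CPM among IHCs and 36.9, 53.0 and 80.7 CPM among OHCs (log2 fold change -0.30, SE 0.26, edgeR adjusted p = 0.552). Both were abundant and overlapped between the cell types. Cplx3 and Cplx4, the complexins of retinal ribbon synapses, had 0 counts in all 12 libraries, where 3 counts correspond to 0.0647 to 0.196 CPM.

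Munc13 genes, whose products prime vesicles for release, were low. Unc13a had 1.47, 10.3 and 28.2 CPM among IHCs and 7.55, 24.9 and 36.2 CPM among OHCs, with a log2 fold change of 0.83 (SE 0.62, edgeR adjusted p = 0.464). Unc13b had 2.22, 14.0 and 19.6 CPM and 5.14, 11.4 and 20.4 CPM. Its log2 fold change rounds to 0.00 (SE 0.58, edgeR adjusted p = 0.998), and its sign differed between settings. The summed Munc13 level was 1.28 ± 0.94 CPM per kb (SD, n = 6) in IHCs and 1.95 ± 0.71 in OHCs, against 32.3 ± 6.85 and 26.9 ± 7.17 CPM per kb for the complexins. The size of this gap depends on the merged exon lengths. These are 16524 and 22777 bp for Unc13a and Unc13b, and 3659 and 4936 bp for Cplx1 and Cplx2. Exons of Colgalt1 lie opposite 16.7% of the exonic bases of Unc13a. Unc13c and Unc13d were not tested, and their highest levels in a library were 1.09 and 2.79 CPM, in OHC replicates 3 and 4.

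The 3 SV2 genes encode glycoproteins of the synaptic vesicle membrane and did not move together. Sv2b had 6.41, 35.8 and 59.8 CPM among IHCs and 2.62, 13.3 and 20.6 CPM among OHCs, with 5 IHC libraries above every OHC library. Its log2 fold change of -1.52 (SE 0.52) did not pass the test with all libraries (edgeR adjusted p = 0.0855), and passed it without IHC replicate 1 (log2 fold change -1.75, edgeR adjusted p = 0.0217), in DESeq2 (adjusted p = 0.0264) and in edgeR's exact test (adjusted p = 0.0441). Sv2a had 11.8, 16.1 and 33.0 CPM among IHCs and 14.8, 23.5 and 43.6 CPM among OHCs (log2 fold change 0.46, SE 0.40, edgeR adjusted p = 0.543). Sv2c rested on 1 library in IHCs, with 1.51, 9.98 and 51.0 CPM there and 0.989, 4.53 and 24.7 CPM among OHCs, and its log2 fold change of -0.83 (SE 0.80, edgeR adjusted p = 0.588) was 0.01 without IHC replicate 6. Per kb of exon, Sv2b had 40.3% ± 17.5 (SD, n = 6) of their sum in IHCs and Sv2a 36.0% ± 16.2, an order within the spread, while Sv2a had 62.0% ± 20.2 in OHCs.

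Synapsins coat synaptic vesicles and tie them to actin. Syn1 had 39.9, 46.2 and 93.1 CPM in IHC libraries and 13.1, 27.9 and 42.3 CPM in OHC libraries, and 5 IHC libraries lay above every OHC library. Its log2 fold change was -0.97 (SE 0.35, edgeR adjusted p = 0.111), and DESeq2 gave an adjusted p of 0.0376. Syn3 had 39.6, 83.9 and 165 CPM among IHCs and 23.6, 54.8 and 77.3 CPM among OHCs (log2 fold change -0.81, SE 0.34, edgeR adjusted p = 0.171), but Timp3 and Fbxo7 lie opposite its exons, the latter over 14.6% of its exonic bases. Syn2 was scarce, with 0.0272, 1.601 and 4.93 CPM among IHCs and 0.335, 2.35 and 9.79 CPM among OHCs (log2 fold change 0.82, SE 1.11, edgeR adjusted p = 0.711). The summed level of the 3 genes was 17.6 ± 4.27 CPM per kb (SD, n = 6) in IHCs and 9.44 ± 3.29 in OHCs, with Syn1 at 74.6% and 70.1% of it on average.

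Rab3 GTPases sit on synaptic and secretory vesicles and act through effectors such as the RIM proteins. Rab3b was the most abundant of them in both cell types, at 31.5 ± 5.35 CPM per kb (SD, n = 6) in IHCs and 35.7 ± 17.0 in OHCs. It had 87.0, 119 and 148 CPM in IHC libraries and 72.2, 130 and 245 CPM in OHC libraries, and its log2 fold change of 0.18 (SE 0.28, edgeR adjusted p = 0.751) turned to -0.09 without OHC replicate 5. Rab3a, the main form of neurons, had 17.7, 41.5 and 68.7 CPM among IHCs and 16.5, 26.5 and 71.8 CPM among OHCs (log2 fold change -0.46, SE 0.41, edgeR adjusted p = 0.551), and Mpv17l2 lies opposite 17.97% of its exonic bases. Neither gene passed the test.

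Rab3d, a form of exocrine and other secretory cells, had 2.16, 6.42 and 11.4 CPM among IHCs and 6.16, 17.5 and 44.6 CPM among OHCs, where 4 libraries lay above every IHC library. The log2 fold change of 1.84 (SE 0.58) did not pass with all libraries (edgeR adjusted p = 0.0632). It passed without IHC replicate 6 (adjusted p = 0.0492) and without OHC replicate 3 (adjusted p = 0.0447), the library richest in endothelium markers, and DESeq2 and edgeR's exact test called it with all libraries (adjusted p = 0.00492 and 0.0245). Rab3c had at most 2.39 CPM in an IHC library and 0.108, 2.40 and 14.4 CPM among OHCs, with a log2 fold change of 2.55 (SE 1.28, edgeR adjusted p = 0.255), which was 1.32 without OHC replicate 3.

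Untested members were 15, and their mean reached at most 1.85 CPM in a cell type, for Syt3 in IHCs. Cplx3, Cplx4 and Syt8 had 0 counts everywhere. The others were Stx11, Stx19, Vamp5, Vamp9, Syt3, Syt9, Syt10, Syt12, Syt15, Syt16, Unc13c and Unc13d, and several of them were counted mainly in 1 or 2 libraries. Syt3 reached 9.53 CPM in IHC replicate 3 against an IHC median of 0.363, Syt15 reached 4.004 CPM in the same library, and Syt9 and Syt16 reached 2.94 and 2.88 CPM in IHC replicates 1 and 2. Vamp5 reached 3.90 CPM in OHC replicate 5 and had 0 counts in every IHC library.

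Set side by side per kb of exon, the members spanned a wide range in both cell types. The median tested member was at 4.13 CPM per kb in IHCs and 3.79 in OHCs, beside 2.81 and 2.67 for all genes tested. After Syt14, the highest levels in IHCs were those of Syt7 at 46.5 ± 12.1, Rab3b, Syt13 at 28.4 ± 6.30 and Vamp2 at 25.1 ± 5.89 CPM per kb (SD, n = 6). In OHCs they were Rab3b, Syt7 at 35.0 ± 12.1, Vamp2 at 22.6 ± 6.56 and Syt13 at 20.2 ± 3.46 CPM per kb, and Syt7 and Rab3b, like Vamp2 and Syt13, are neighbours whose order is within their spread. Snap25, above 88.0% of tested genes in IHCs, was above 75.4% of them in OHCs. The corresponding values were 80.9% and 55.3% for Syt2, and 60.7% and 81.5% for Syt1. Over all 68 members the summed level was 431 ± 23.1 CPM per kb in IHCs and 383 ± 47.7 in OHCs, with overlapping ranges.

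**Figure D5:**
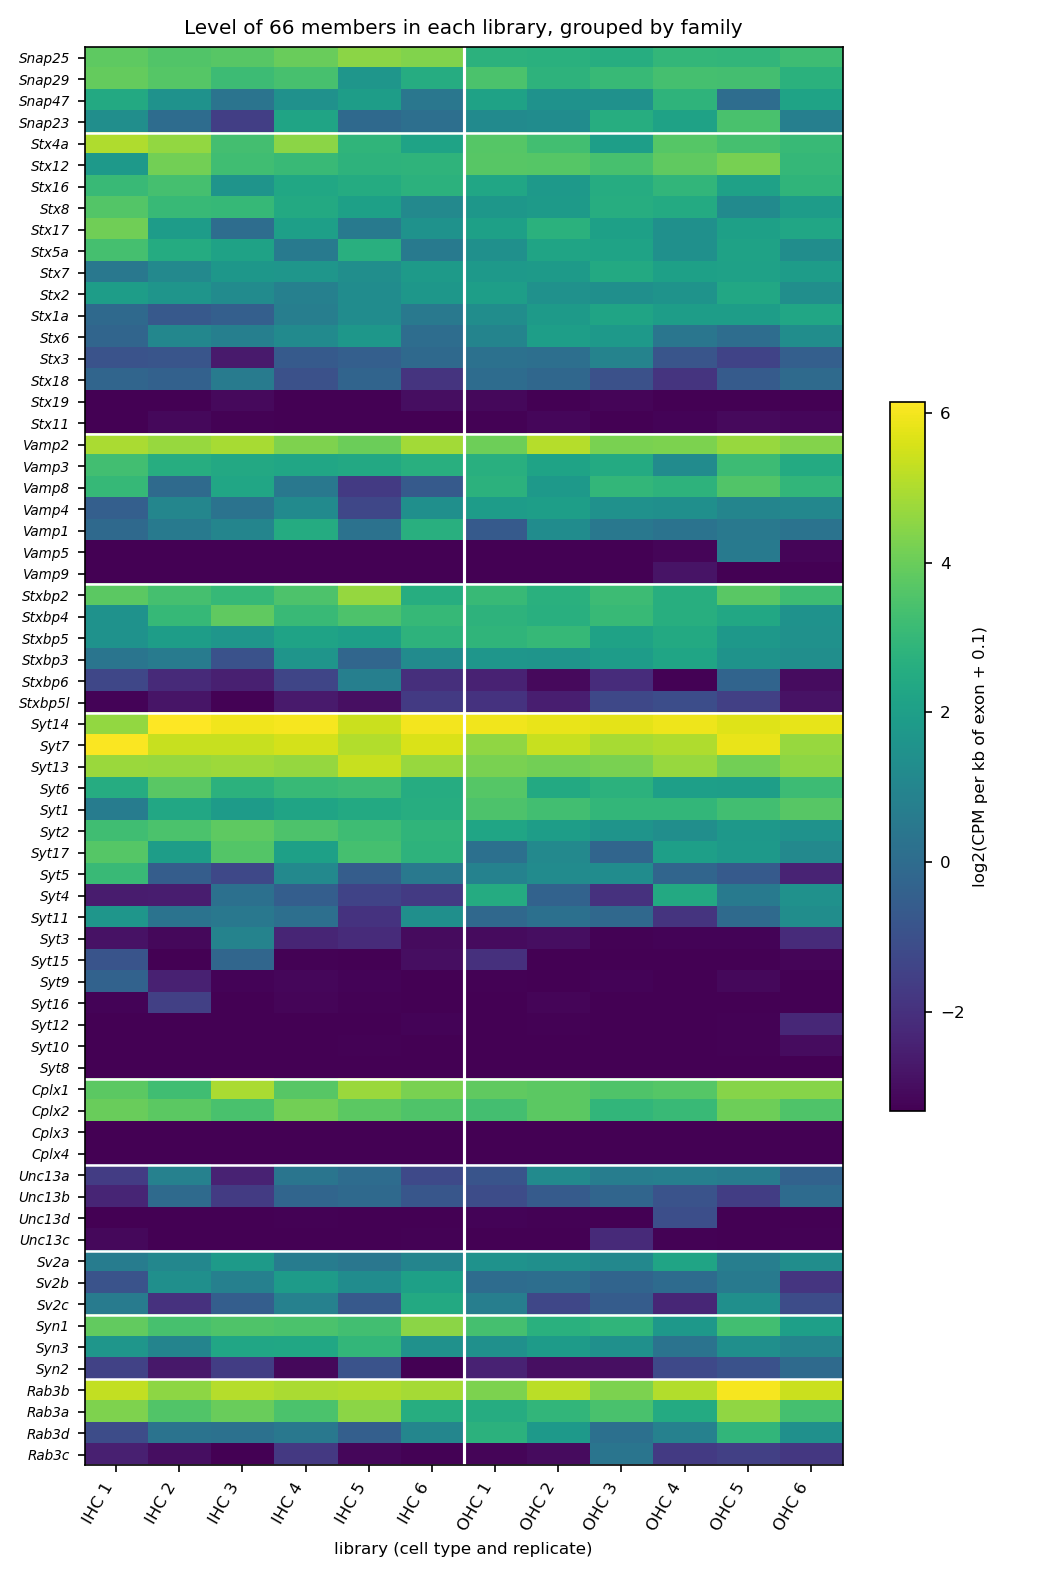
Level of 66 of the 68 members (rows, grouped by family) in each of the 12 libraries (columns), coloured by log2 of CPM per kb of exon plus 0.1. Syt14, Syt7, Syt13, Vamp2 and Rab3b are bright in every column, Snap25 and Syt2 are brighter in the IHC columns, Syt1 is brighter in the OHC columns, and the untested genes are dark in most columns.

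Other genes of vesicle release were taken from a list of 63, of which 47 were tested. The list was drawn up with earlier results of these data known. It holds Otof, Slc17a8 and Ctbp2, which the study names as enriched in IHCs. The share called and its direction are therefore not a test of the pathway. By edgeR's quasi-likelihood test 7 of the listed genes were enriched in IHCs and 0 in OHCs. This is 14.9% of those tested, beside 6.26% of all genes, or 3.81% enriched in IHCs and 2.44% in OHCs. At an unadjusted p under 0.05, 8 partner genes were higher in IHCs and 0 in OHCs, beside 21.8% of all genes in either direction. The exact test of edgeR gave 7 and 0, beside 9.54%, and DESeq2 9 and 1, beside 17.3%. The 1 gene called higher in OHCs was the vesicular glutamate transporter gene Slc17a6, whose counts were too low for edgeR's filter. The called genes belong to several steps of the pathway. Otof, which encodes otoferlin, had 1417 to 3699 CPM in IHC libraries and 354 to 664 CPM in OHC libraries, and with Slc17a8 it is also on the list of IHC markers. Slc17a8, the vesicular glutamate transporter VGLUT3 of IHCs, had 169 to 277 CPM against 1.40 to 35.5 CPM, with a log2 fold change of -3.97 (SE 0.61, edgeR adjusted p = 3.76e-04).

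Cadps encodes CAPS1, which primes vesicles, and had 49.7, 64.5 and 99.7 CPM among IHCs and 1.95, 9.58 and 28.4 CPM among OHCs (log2 fold change -2.58, SE 0.50, edgeR adjusted p = 0.00296). Every IHC library lay above every OHC library. Its paralog Cadps2 had 56.1 to 167 CPM in IHC libraries and 53.3 to 109.7 CPM in OHC libraries and was not called. Ctbp2, whose locus also encodes the ribbon protein RIBEYE, had 92.5, 119 and 289 CPM among IHCs and 39.2, 64.5 and 100.1 CPM among OHCs (log2 fold change -1.27, SE 0.30, edgeR adjusted p = 0.0151), with 5 IHC libraries above every OHC library.

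The Rab3 cycle added Madd, a Rab3 exchange factor, and Rph3al, an effector of Rab3 and Rab27. Madd had 220.0, 258 and 334 CPM in IHC libraries and 99.7, 154 and 180.4 CPM in OHC libraries, with no overlap (log2 fold change -0.91, SE 0.21, edgeR adjusted p = 0.0120). Rph3al had 60.6, 87.6 and 149 CPM and 43.9, 53.2 and 59.4 CPM (log2 fold change -0.91, SE 0.25, edgeR adjusted p = 0.0366), but passed in 4 of 12 fits without one library each, with an adjusted p from 0.0193 to 0.0885. Vti1a, a SNARE of the trans-Golgi network and endosomes, had 42.0, 54.9 and 194 CPM and 23.7, 31.0 and 36.0 CPM (log2 fold change -1.44, SE 0.36, edgeR adjusted p = 0.0190), and without IHC replicate 5 its adjusted p was 0.0639. None of the 5 SNARE recycling genes (Nsf, Napa, Napb, Napg and Dnajc5) was called, and Rims2, an active zone gene, was at 304 to 378 CPM in IHC libraries and 306 to 443 CPM in OHC libraries.

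Some genes listed as markers of other cell types also differed between IHCs and OHCs. Many members are also genes of neurons, and of 12 spiral ganglion neuron markers 3 were higher in IHCs, namely the neurofilament genes Nefm and Nefl and the neurotrophin receptor gene Ntrk3. The list summed to 838 to 1542 CPM in IHC libraries and 234 to 487 CPM in OHC libraries. Most of this sum was Nefm, at 512 to 1185 and 127 to 304 CPM, and Nefl, at 296 to 520 and 69.5 to 149 CPM. Rbfox3 had 21.0 to 75.9 CPM in IHC libraries and 9.51 to 46.2 CPM in OHC libraries, and Pou4f1 had 0.209 to 17.3 and 0.187 to 4.70 CPM. Neither was called (edgeR adjusted p = 0.461 and 0.488), and both were highest in IHC replicate 5, the library with the highest Snap25 level. The next highest Snap25 level, 205 CPM, was in IHC replicate 6. There Rbfox3, Nefm and Nefl were at their lowest IHC levels, and Pou4f1, at 3.62 CPM, was at its next highest. Prph, Nefh, Thy1, Gap43, Tubb3 and Stmn2, which had too few counts to be tested, were at 0.890 CPM or less in every IHC library and at 6.68 CPM or less in every OHC library. Of 8 supporting cell markers Sox2 and Gjb2 were higher in IHCs and Prox1 in OHCs, and of 5 greater epithelial ridge markers Tecta was higher in IHCs. The study itself names Prox1 as enriched in OHCs, and as a gene of developing outer hair cells as well as supporting cells. The supporting cell list summed to 301 to 777 CPM in IHC libraries and 307 to 559 CPM in OHC libraries, and the ridge list to 703 to 1592 and 145 to 596 CPM. Mesenchyme markers, at 42.8 to 59.3 and 5.07 to 27.3 CPM, and glia markers, at 20.9 to 75.4 and 7.81 to 44.9 CPM, held no called gene. Macrophage markers reached 19.6 and 5.47 CPM, mostly C1qb, with Aif1, C1qa, Cx3cr1 and Tyrobp at 0, and erythroid markers reached 0.0613 and 3.20 CPM. The part of these other cell types in the differences of Snap25, Syt2 and Syt17 was not tested.

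Of 8 endothelium markers 6 were higher in OHCs and 0 in IHCs by edgeR's quasi-likelihood test, and the median of every one was higher in OHC libraries. Their sum was 220 CPM in OHC replicate 3 and 16.1 to 80.1 CPM in the other OHC libraries, all above the highest IHC value of 5.08 CPM. Syt1 was at 98.9 CPM in OHC replicate 3 and at 97.7 to 163 CPM in the others. The part of endothelial RNA in the difference of Syt1 was not tested.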

How the data were processed

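RNA of 12 pools of sorted P0 hair cells was depleted of ribosomal RNA, primed with random hexamers, amplified and sequenced as paired reads. The authors deposited raw counts per gene, made with a 2-pass STAR alignment to GRCm39 and HTSeq (intersection-nonempty, GENCODE vM27), and the submitters' processing notes also name Trimmomatic. Tool versions and the strand setting are not given in the sources used here. Without molecular identifiers, limits set by counts cover counting error only.

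These counts were tested with edgeR 4.0.16 under R 4.3.3 (filterByExpr with the cell type as group, at least 10 counts a library and 15 in all, TMM, glmQLFit and glmQLFTest, Benjamini-Hochberg threshold 0.05) over all genes, with HTSeq summary lines left out. The SE is the size of the log2 fold change divided by the square root of F. Lengths, positions and exon overlaps come from GENCODE vM39, which holds 98.8% of the gene identifiers. Vamp7 was not analysed here, and 2 tested members and 1 neuron marker, which stay in the counts and sums, are not reported here. Alternatives were DESeq2 1.42.0, edgeR's exact test, RLE normalization, 2 other filters, removal of ribosomal and mitochondrial genes, leaving out each library, and the replicate number as a block. On simulated counts the test recovered 43% of 200 genes changed 4-fold among 13072, with 1 false call.

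The members, families, marker and partner lists were chosen with earlier results of these data known. Values are given for called members and for a fixed list of members of regulated exocytosis, other members are named where they lead their family per kb, and partner genes where called. Members outside this rule, such as Syt13, Stxbp3, Stx17 and Vamp8, and the partner genes Cadps2, Rims2 and Slc17a6 were named after their values were seen.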

Additional observations from a re-analysis of the deposited data

Results flagged for a closer look

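In 7 of 80 groups of 6 libraries, 1 library stood far from the rest by Dixon's criterion, which chance meets in about 5% of groups of normally distributed values. CPM levels need not be distributed so, and all 7 libraries stood out on the high side. The genes were also chosen partly by their results, so the 7 of 80 cannot be read against that rate. Among the members these were Rab3a in OHC replicate 5, at 71.8 CPM where the next library had 32.5, Rab3c in OHC replicate 3, at 14.4 against 2.97 CPM, Stxbp5l in IHC replicate 6, at 5.12 against 1.54 CPM, Sv2a in IHC replicate 3, at 33.0 against 18.7 CPM, and Sv2c in IHC replicate 6, at 51.0 against 16.5 CPM. Among the partner genes they were Cadps and Vti1a in IHC replicate 5, at 99.7 against 67.5 CPM and at 194 against 98.1 CPM. None of the 4 called members had such a library. A library of this kind widens the spread that the test weighs, so its absence there lends the calls no weight.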

How the results depend on the processing

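Snap25, Syt2, Syt17 and Syt1 were called in the same direction in all 20 fits, the one reported and 19 alternatives. With each library left out in turn, 3 to 4 members were higher in IHCs and 1 to 2 in OHCs, Sv2b being added without IHC replicate 1 and Rab3d without IHC replicate 6 or OHC replicate 3. Of 55 members tested, DESeq2 called 7 higher in IHCs and 5 in OHCs, beside 17.3% of all genes. Of 53 members, edgeR's exact test called 4 higher in IHCs and 3 in OHCs, beside 9.54% of all genes. Over all genes, where 506 were higher in IHCs and 324 in OHCs (61.0% in IHCs), DESeq2 gave 1339 and 1590 (45.7%), the exact test 517 in OHCs, no low-count filter 893 and 918 (49.3%), at least 10 counts in every library 67.7% in IHCs, and leaving out a library 369 to 551 and 225 to 402. The median log2 fold change was 0.12 with DESeq2 and 0.11 without a filter, over more low genes. Partner genes higher in OHCs, 0 in the reported fit, were 1 with DESeq2 and 2 without a filter (Slc17a6 and Doc2b).

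Of 755 log2 fold changes of 40 genes under the alternatives, 716 kept their direction and their side of the threshold, 11 passed it newly, 10 no longer passed it and 18 changed sign. The sign changes were in 5 genes, of which Rab3b, Snap29, Syt14 and Unc13b were within 0.18 of 0 in the reported fit and Sv2c was at -0.83, a value that rested on IHC replicate 6. Unc13b was at 0.0137 with DESeq2, 0.0105 with RLE normalization, 0.0065 without ribosomal and mitochondrial genes, 0.015 with 10 counts in every library and between -0.23 and 0.18 without single libraries. Leaving out single libraries gave -0.0856 to 0.29 for Rab3b, -0.28 to 0.10 for Snap29, -1.47 to 0.0143 for Sv2c and -0.11 to 0.14 for Syt14.

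With the replicate number as a block (replicate block), the same 4 members were called, with 512 genes higher in IHCs and 391 in OHCs overall. Snap29 was then at 0.0444 and Unc13b at 0.22, and Rph3al lost its call (adjusted p = 0.0681, edgeR). The numbers only name the libraries, since deviations of same-numbered libraries correlated at -0.03 to 0.02 and no library correlated best with its own number (0 of 6).

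With ribosomal and mitochondrial genes left out of the library sizes, levels in IHCs and OHCs were 24.99 and 11.1 CPM per kb for Snap25, 6.63 and 15.1 for Syt1, 16.1 and 5.08 for Syt2, 72.3 and 54.0 for Syt7, 44.0 and 31.3 for Syt13, and 84.1 and 87.3 for Syt14, and 12.8 for Syt17 in IHCs. All these levels rose by construction, because the total was smaller. Genes at a few CPM, such as Rab3c and Syt4, rest on few reads in some libraries.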
